A study of Mus musculus with 6 samples.

Results

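The 10 genes described here encode the 3 TGF-beta ligands (Tgfb1, Tgfb2, Tgfb3), the 4 latent TGF-beta binding proteins (Ltbp1, Ltbp2, Ltbp3, Ltbp4) and the 3 TGF-beta receptors (Tgfbr1, Tgfbr2, Tgfbr3). They were taken from the deposited count table by gene symbol, 10 of 24516 symbols, and all 10 were among the 13427 genes that passed the filter on low counts. Poly(A)-selected RNA was sequenced from iMGT-Myh6-eGFP-MEF, a mouse embryonic fibroblast line in which doxycycline induces MGT, the transcription factors Mef2c, Gata4 and Tbx5 that can convert fibroblasts towards cardiomyocytes. Its name also gives an eGFP reporter for Myh6, the cardiac alpha-myosin heavy chain gene. The siH1f0 group received an siRNA against H1f0, the gene of linker histone H1.0. The siJunb group received an siRNA to Junb, whose product JUNB is part of AP-1 transcription factor dimers. The siControl group received the control siRNA. Every group, siControl included, was the same line, carried the transgenes and received 1 ug/mL doxycycline the day after transfection, so no library shows these genes without induction. Each group held 2 libraries, labelled as biological replicates of the 1 line, and whether the line is a clone is not given in the sources used here. Harvest is given as day 1 after induction in the sample labels and as day 3, after sorting GFP+ cells, in the series text, and this difference was not settled.

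TGF-beta is secreted as a latent complex, in which the cleaved propeptide still wraps the growth factor and is joined to a latent TGF-beta binding protein that ties it to fibrillin and fibronectin in the matrix. Integrins, thrombospondin and proteases release the ligand, which binds the type II receptor Tgfbr2. Tgfbr2 then phosphorylates the type I receptor Tgfbr1, and Tgfbr1 phosphorylates Smad2 and Smad3. In fibroblasts this pathway is known for driving matrix production and the myofibroblast state, and blocking it is known to favour reprogramming of fibroblasts to cardiomyocyte-like cells.

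The libraries held 48690447 to 85979630 counts, and the members had 1959 to 13567 counts in a library. Levels are given as CPM, counts scaled to the TMM-adjusted library total. Where genes are compared with each other, RPKM is used, which also divides by the deposited gene length. Both siRNA targets were low in their own group: H1f0 had 51.6 and 54.4 CPM in the siH1f0 libraries, 666 and 650.5 CPM in the siJunb libraries and 798 and 742 CPM in the siControl libraries. Junb had 29.97 and 31.1 CPM in the siH1f0 libraries, 10.7 and 8.89 CPM in the siJunb libraries and 39.1 and 35.7 CPM in the siControl libraries. H1f0 was also lower in siJunb against siControl (log2 fold change -0.23, adjusted p = 0.021, edgeR quasi-likelihood test). It did not pass with only the 4 libraries compared. In the same test Junb had -0.29 for siH1f0 against siControl (adjusted p = 0.0778). The fibroblast label was borne out in part: summed fibroblast markers reached 4652 to 4980 CPM in every library, mostly from Vim, Col1a1 and Col1a2. However, Thy1, Lum and Tcf21 were at or near 0, Postn had at most 0.687 CPM and Col3a1 at most 1.69 CPM. The 8 epithelial markers summed to at most 0.0997 CPM in a library. Of the 10 macrophage and leukocyte markers, Ptprc, C1qa, Cd3e and Ms4a1 were at 0 in all 6 libraries and Adgre1 and Itgam stayed at or under 0.105 CPM, but Cd14 had 8.62 to 13.1 CPM, Lyz2 1.05 to 2.33 CPM, Cd68 0.858 to 1.79 CPM and Csf1r 0.21 to 0.691 CPM. The 2 siControl libraries differed from each other by more than the other replicate pairs did (chi-square per degree of freedom 74.6 in siControl, 3.80 in siJunb and 3.85 in siH1f0).

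All 10 genes were expressed in every library. By RPKM, averaged over the 6 libraries, Tgfb1 was at 30.7, Tgfbr3 at 29.4, Ltbp3 at 28.5, Tgfb3 at 28.3 and Tgfb2 at 24.9. Tgfbr1 was at 19.1, Tgfbr2 at 16.9, Ltbp4 at 10.8, Ltbp1 at 9.22 and Ltbp2 at 5.55 RPKM. These levels lay between the 36.7th percentile of all tested genes (Ltbp2) and the 77.8th (Tgfb1). In the siH1f0 libraries the order was Tgfb1, Tgfbr3, Ltbp3, Tgfb3, Tgfb2, Tgfbr1, Tgfbr2, Ltbp4, Ltbp1 and Ltbp2, where the neighbours Ltbp3 and Tgfb3 overlapped between libraries. In the siJunb libraries Tgfbr3 and Tgfb2 led, followed by Tgfb1, Tgfb3, Ltbp3, Tgfbr2, Tgfbr1, Ltbp1, Ltbp4 and Ltbp2, and the neighbours Tgfb1 and Tgfb3 overlapped. In the siControl libraries the order was Tgfb1, Ltbp3, Tgfb3, Tgfbr3, Tgfb2, Tgfbr1, Tgfbr2, Ltbp4, Ltbp1 and Ltbp2. There Tgfbr3 overlapped with Tgfb2, and Tgfbr1 with Tgfbr2. Ltbp2 was the lowest of the 10 in all 3 groups.

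**Figure D1:**
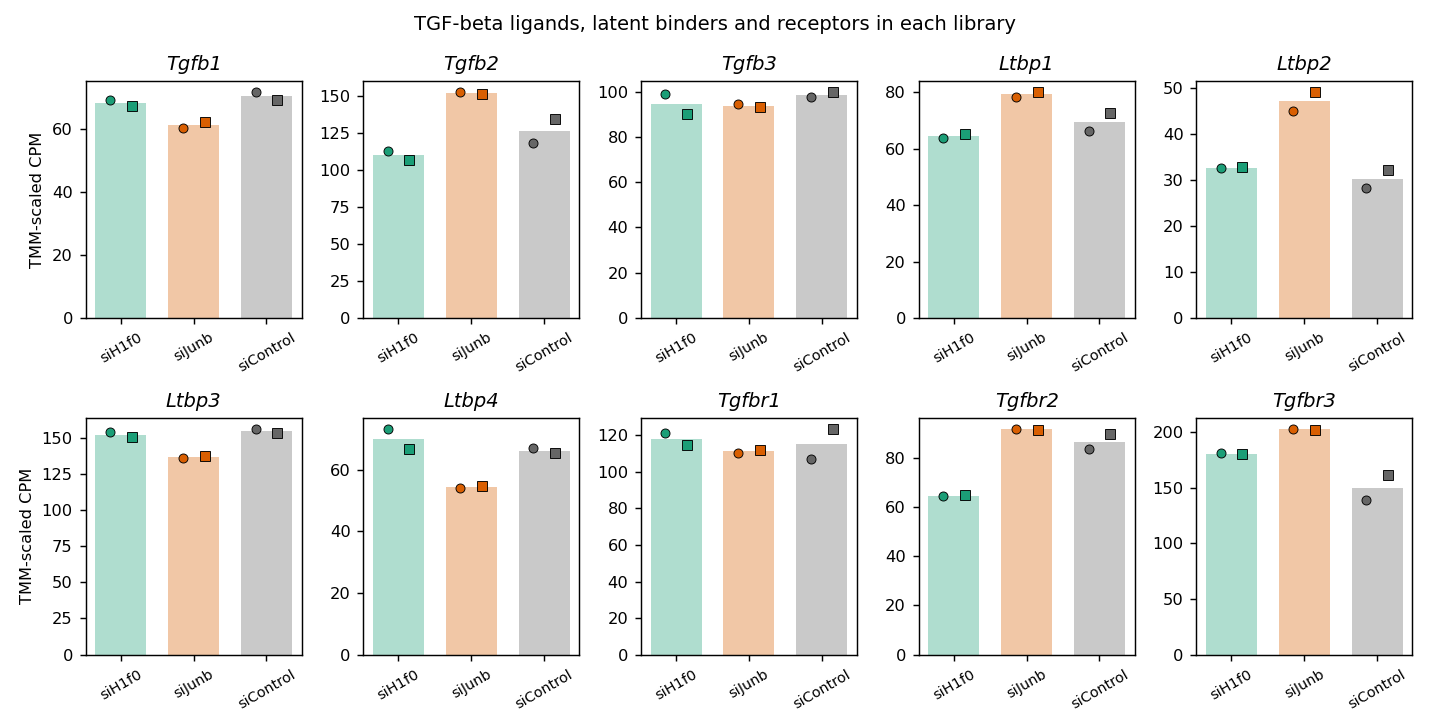
Level of each of the 10 genes in CPM on a linear axis from 0, with 1 panel per gene. Bars are means of the 2 libraries of siH1f0, siJunb and siControl, circles are replicate 1 and squares replicate 2. Ltbp2 stands highest in both siJunb libraries (45.1 and 49.1 CPM) and Tgfbr2 lowest in both siH1f0 libraries (64.4 and 64.8 CPM).

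With Junb knocked down, 6 of the 10 genes passed the test at an adjusted p under 0.05 (edgeR quasi-likelihood test, Benjamini-Hochberg over all genes tested), against 16.5% of all tested genes. Ltbp2, Tgfbr3 and Tgfb2 rose, where 8.63% of all tested genes rose, and Tgfb1, Ltbp3 and Ltbp4 fell, where 7.82% fell. With H1f0 knocked down, 1 of the 10 passed, against 6.55% of all tested genes: Tgfbr2 fell, as 4.27% of all tested genes did. Between the knockdowns, 6 of the 10 differed, against 25.9% of all tested genes. Tgfb2, Ltbp1, Ltbp2 and Tgfbr2 were lower in siH1f0 than in siJunb (13.8% of all tested genes were), and Ltbp3 and Ltbp4 were higher (12.2% were). Both knockdowns were set against the same siControl libraries, so their values are not independent of each other. In bulk RNA, fewer cells with a transcript and less of it per cell cannot be told apart.

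The called changes were of modest size and went both ways. For siJunb against siControl the median log2 fold change of the 10 genes was 0.02, against 0.0024 over all tested genes, and the median absolute change was 0.20, against 0.14. With siH1f0 against siControl the median was -0.04, against 0.0034, and the median absolute change was 0.09, against 0.11. Between siH1f0 and siJunb the median was -0.08, against 0.00071, and the median absolute change was 0.23, against 0.16. At an unadjusted p under 0.05, 7 of the 10 genes passed for siJunb against siControl (31.7% of all tested genes), 3 for siH1f0 against siControl (22.8%) and 8 for siH1f0 against siJunb (38.5%). The siJunb libraries did not overlap with the siControl libraries for 9 of the 10 genes, and 58% of all tested genes were separated in that way. The siH1f0 and siControl libraries were separated for 6 of the 10 genes, against 50.6% of all tested genes, and the siH1f0 and siJunb libraries for 9 of the 10, against 71.7%.

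**Figure D2:**
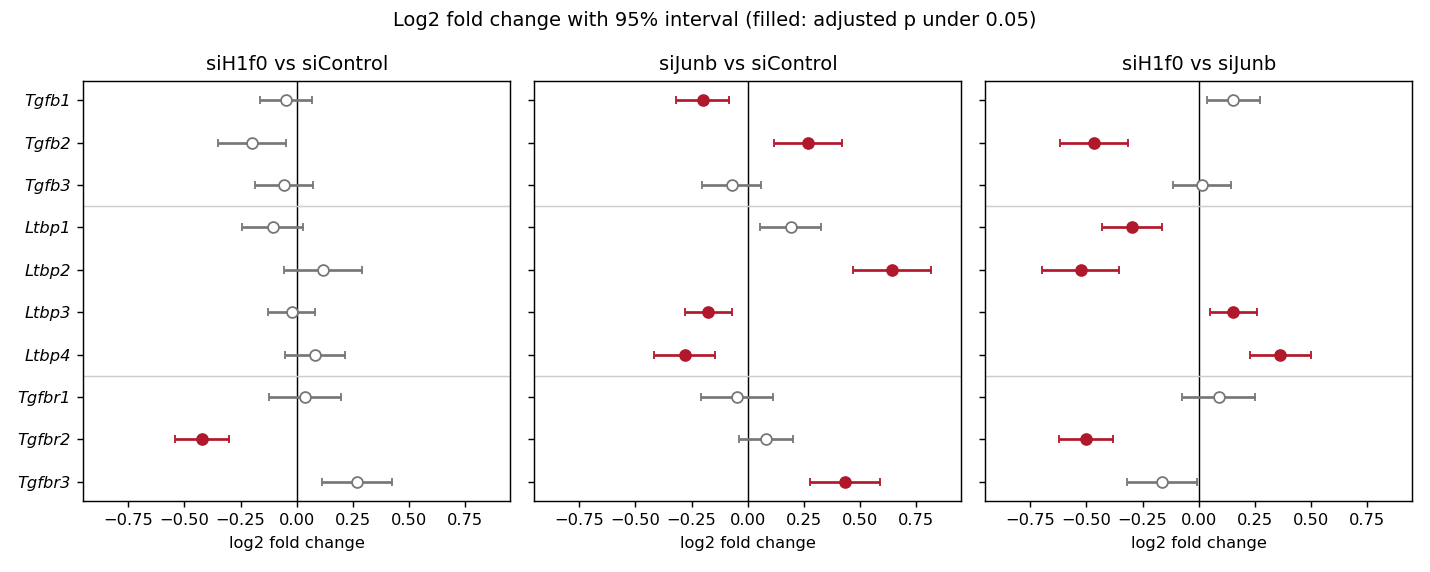
Log2 fold change of each of the 10 genes with its 95% confidence interval, in panels for siH1f0 against siControl, siJunb against siControl and siH1f0 against siJunb. Filled points passed the adjusted p threshold of 0.05. Ltbp2 has the highest point for siJunb against siControl, 0.64, and Tgfbr2 the lowest for siH1f0 against siControl, -0.42.

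Among the ligands, Tgfb1 and Tgfb2 moved in opposite directions with Junb knocked down, and Tgfb3 did not pass any test. Tgfb1 (chromosome 7, 25687002 to 25705077, GRCm38.p6) encodes the isoform most often studied in fibrosis. It had 69.2 and 67.5 CPM in the siH1f0 libraries, 60.6 and 62.3 CPM in the siJunb libraries and 71.8 and 69.5 CPM in the siControl libraries. Both siJunb libraries lay below the other 4, which lay within a narrow band. The log2 fold change of Tgfb1 was -0.20 (SE 0.05, adjusted p = 0.0312) for siJunb against siControl, a fall to 61.5 ± 1.22 CPM in siJunb, against 70.7 ± 1.65 CPM in siControl (SD, n = 2 each). It was -0.05 (adjusted p = 0.618) for siH1f0 against siControl and 0.15 (adjusted p = 0.0592) for siH1f0 against siJunb. With only the 4 siH1f0 and siJunb libraries the latter was 0.16 and passed (adjusted p = 0.00106). That fit takes the spread without the siControl libraries and called 6416 of all tested genes, against 3484 with all 6 libraries. The fall in siJunb did not pass without either siJunb library (adjusted p = 0.243 and 0.172), without either siH1f0 library (0.0887 and 0.0880) or with only the 4 libraries compared (0.0855).

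Tgfb2 (chromosome 1, 186622787 to 186709697) encodes the isoform that binds Tgfbr2 weakly unless the co-receptor Tgfbr3 presents it. Its level was 113 and 107 CPM in the siH1f0 libraries, 152 and 151 CPM in the siJunb libraries and 118 and 134 CPM in the siControl libraries. Both siJunb libraries were above, and both siH1f0 libraries below, every siControl library, and the gap between the 2 siControl libraries was the widest within a group. The log2 fold change of Tgfb2 was 0.27 (SE 0.07, adjusted p = 0.0273) for siJunb against siControl, and -0.20 (SE 0.07, adjusted p = 0.117) for siH1f0 against siControl. Set directly against each other, siH1f0 averaged 109.9 ± 4.42 CPM and siJunb 152 ± 0.596 CPM (SD, n = 2 each), with a log2 fold change of -0.47 (SE 0.07, adjusted p = 0.0015). That difference passed under every one of the 14 alternatives tried. The rise in siJunb did not pass without either siJunb library (adjusted p = 0.178 and 0.169), without either siH1f0 library (0.0654 and 0.0643) or with only the 4 libraries compared (0.0659). The siH1f0 log2 fold change against siControl was -0.29 without siControl replicate 1 and -0.11 without siControl replicate 2. A lone siControl library has no spread of its own, so such fits take it from the other groups.

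Tgfb3 (chromosome 12, 86056743 to 86079041) encodes the third isoform, known for its role in palate formation. It had 99.2 and 90.3 CPM in the siH1f0 libraries, 94.5 and 93.3 CPM in the siJunb libraries and 97.7 and 99.7 CPM in the siControl libraries. The siH1f0 libraries spanned all values of the siJunb libraries. The 95% confidence interval of the log2 fold change was -0.20 to 0.06 for siJunb against siControl, -0.19 to 0.07 for siH1f0 against siControl and -0.12 to 0.14 for siH1f0 against siJunb.

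Taken as shares of the summed ligand RPKM, Tgfb2 made up 26.2% and 26.2% in the siH1f0 libraries, 34.4% and 34.1% in the siJunb libraries and 26.9% and 29.6% in the siControl libraries. Tgfb1 made up 38.4% and 39.7% in the siH1f0 libraries, 32.8% and 33.6% in the siJunb libraries and 39.0% and 36.6% in the siControl libraries. In both siJunb libraries Tgfb2 therefore had the largest share of the 3 ligands, whereas in the other 4 libraries Tgfb1 had. The ligand sum itself was 82.9 and 78.2 RPKM in siH1f0, 85.1 and 85.3 RPKM in siJunb and 84.6 and 87.2 RPKM in siControl. No test was run on these shares.

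**Figure D3:**
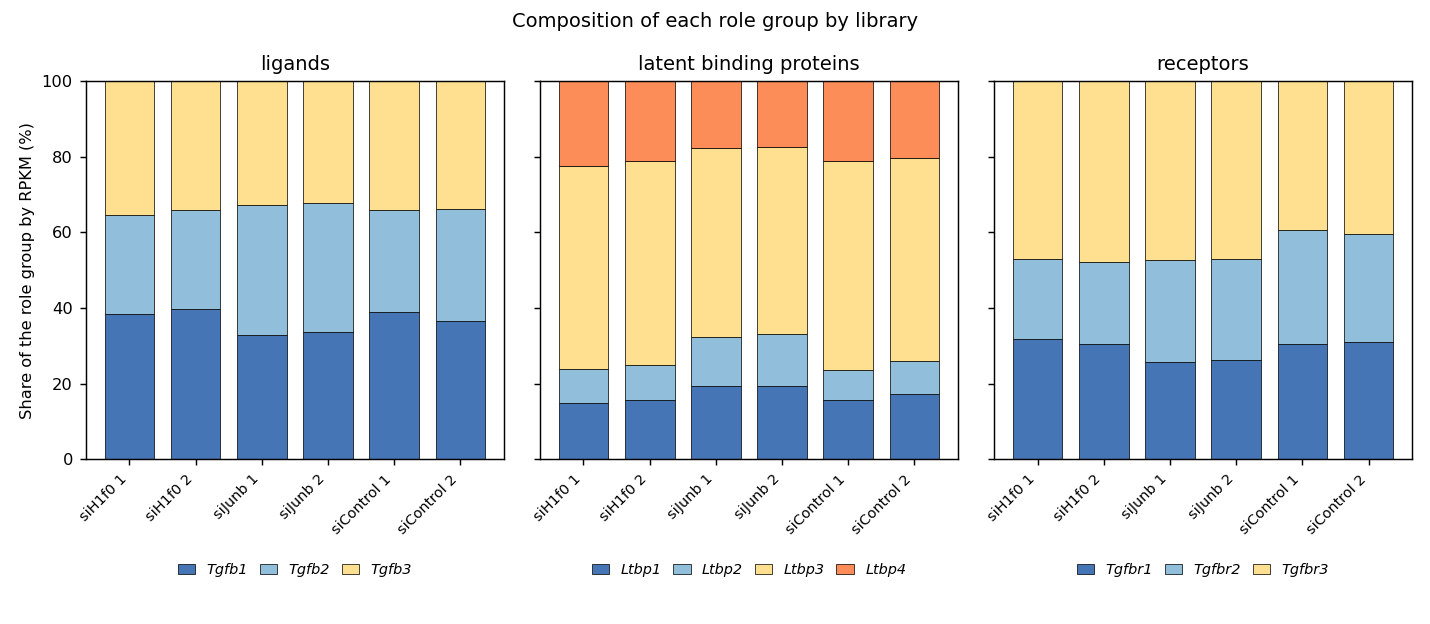
Share of the summed RPKM held by each gene within the ligands, the latent binding proteins and the receptors, in percent, as stacked bars for each of the 6 libraries. Tgfb2 takes 34.4% and 34.1% of the ligands in siJunb, and Tgfbr2 takes 21.2% and 21.7% of the receptors in siH1f0.

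The latent TGF-beta binding proteins split with Junb knocked down: Ltbp2 rose, and Ltbp3 and Ltbp4 fell. Ltbp2 (chromosome 12, 84783212 to 84876558) encodes the family member that does not bind latent TGF-beta and that is known as a microfibril protein of the eye and other elastic tissues. It had 32.5 and 32.8 CPM in the siH1f0 libraries, 45.1 and 49.1 CPM in the siJunb libraries and 28.2 and 32.2 CPM in the siControl libraries. Both siJunb libraries lay above the other 4. Ltbp2 averaged 47.1 ± 2.81 CPM in siJunb and 30.2 ± 2.78 CPM in siControl (SD, n = 2 each), 55.9% higher (log2 fold change 0.64, SE 0.08, adjusted p = 0.00151), the largest change among the 10 genes in the 3 comparisons. Against siControl, the siH1f0 log2 fold change was 0.11 (95% confidence interval -0.06 to 0.29, adjusted p = 0.416). It was 0.02 without siControl replicate 1 and 0.20 without siControl replicate 2. Against siJunb, it was -0.53 for siH1f0 (SE 0.08, adjusted p = 0.0016). The differences from siJunb passed under each of the 14 alternatives, with adjusted p up to 0.0304 against siControl and up to 0.0266 for siH1f0 against siJunb. In the GENCODE M21 annotation 764 bases of Ltbp2 exons (9.34%) overlap D030025P21Rik on the other strand, which had 6 to 24 counts per library. The strand setting of the counting is not given in the sources used here, so reads there cannot be told apart.

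Ltbp3 (chromosome 19, 5740900 to 5758536) encodes a binder of all 3 latent ligands that is needed for normal bone and tooth growth. Its level was 154 and 150.2 CPM in the siH1f0 libraries, 136 and 137 CPM in the siJunb libraries and 156 and 153 CPM in the siControl libraries. The siJunb libraries lay below the other 4, and the siH1f0 and siControl libraries overlapped. Its log2 fold change was -0.18 (SE 0.05, adjusted p = 0.0336) for siJunb against siControl and 0.15 (SE 0.05, adjusted p = 0.0396) for siH1f0 against siJunb. It was -0.02 for siH1f0 against siControl (95% confidence interval -0.13 to 0.08). The fall in siJunb did not pass without either siJunb library (adjusted p = 0.239 and 0.221), without either siH1f0 library (0.0999 and 0.0992) or with only the 4 libraries compared (0.0960), and the difference of siH1f0 from siJunb did not pass when any 1 of their 4 libraries was left out (adjusted p up to 0.269).

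Ltbp4 (chromosome 7, 27305140 to 27339720) encodes a binder mainly of latent Tgfb1 that also organises elastic fibres. It had 73.2 and 66.8 CPM in the siH1f0 libraries, 54.2 and 54.7 CPM in the siJunb libraries and 67.0 and 65.3 CPM in the siControl libraries. Again the siJunb libraries were the lowest, by more than 10 CPM. The log2 fold change was -0.28 (SE 0.06, adjusted p = 0.0155) for siJunb against siControl, 0.08 (adjusted p = 0.453) for siH1f0 against siControl and 0.36 (SE 0.06, adjusted p = 0.00283) for siH1f0 against siJunb. The first of these did not pass without either siJunb library (adjusted p = 0.145 and 0.130), and the last passed under each of the 14 alternatives.

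Ltbp1 (chromosome 17, 75005480 to 75392512) encodes the founding binder, which tethers latent TGF-beta to the matrix. It had 63.8 and 65.1 CPM in the siH1f0 libraries, 78.5 and 80.0 CPM in the siJunb libraries and 66.2 and 72.8 CPM in the siControl libraries. The 3 groups did not overlap, with siJunb highest and siH1f0 lowest. The log2 fold change of 0.19 for siJunb against siControl missed the threshold (SE 0.06, adjusted p = 0.0604). It was 0.12 without siControl replicate 1 and 0.25 without siControl replicate 2. The siH1f0 value against siControl was -0.11 (adjusted p = 0.318). It was -0.18 without siControl replicate 1 and -0.04 without siControl replicate 2. The siH1f0 value against siJunb was -0.30 (SE 0.06, adjusted p = 0.00709), and it did not pass without siJunb replicate 1 or 2 or without siH1f0 replicate 1 or 2 (adjusted p from 0.0603 to 0.0842).

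As shares of the summed RPKM of the 4 genes of this family, Ltbp2 made up 8.91% and 9.24% in the siH1f0 libraries, 13.0% and 13.9% in the siJunb libraries and 7.87% and 8.87% in the siControl libraries. Ltbp3 held about as much as the other 3 together, with 53.6% and 53.8% in the siH1f0 libraries, 49.99% and 49.3% in the siJunb libraries and 55.3% and 53.6% in the siControl libraries. The sum was 55.3 and 53.7 RPKM in siH1f0, 52.5 and 53.6 RPKM in siJunb and 54.3 and 54.9 RPKM in siControl. Both siJunb sums were slightly below the other 4. The sum includes Ltbp2, which does not bind latent TGF-beta and rose in siJunb, while Ltbp3 and Ltbp4 fell. A sum of the latent TGF-beta binders alone, without Ltbp2, was not taken.

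Of the receptors, Tgfbr2 fell with H1f0 knocked down and Tgfbr3 rose with Junb knocked down. Tgfbr2 (chromosome 9, 116087695 to 116175363) encodes the ligand-binding type II kinase. It had 64.4 and 64.8 CPM in the siH1f0 libraries, 91.8 and 91.5 CPM in the siJunb libraries and 83.8 and 89.5 CPM in the siControl libraries. Both siH1f0 libraries lay below the other 4. Tgfbr2 averaged 64.6 ± 0.283 CPM in siH1f0 and 86.6 ± 4.09 CPM in siControl (SD, n = 2 each), a log2 fold change of -0.42 (SE 0.05, adjusted p = 0.0028), which fell short of the threshold without siH1f0 replicate 1 (adjusted p = 0.069) or replicate 2 (0.0592). Against siJunb, its log2 fold change in siH1f0 was -0.50 (SE 0.05, adjusted p = 0.000337), and it passed under each of the 14 alternatives. For siJunb against siControl it was 0.08 (95% confidence interval -0.04 to 0.20, adjusted p = 0.327). Without siControl replicate 1 it was 0.03, and without siControl replicate 2 it was 0.12.

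Tgfbr3 (chromosome 5, 107106567 to 107289629) encodes betaglycan, a co-receptor without a kinase that presents ligand to Tgfbr2. Its level was 181 and 180.3 CPM in the siH1f0 libraries, 203 and 202 CPM in the siJunb libraries and 139 and 162 CPM in the siControl libraries. Both knockdowns lay above both siControl libraries, siJunb higher than siH1f0, and the siControl libraries were the most spread. For siJunb against siControl the log2 fold change was 0.43 (SE 0.07, adjusted p = 0.00493), with a mean of 203 ± 0.539 CPM in siJunb and 150.2 ± 16.3 CPM in siControl (SD, n = 2 each). It did not pass without either siJunb library (adjusted p = 0.0642 and 0.0653). In siH1f0 against siControl it was 0.27 (SE 0.07, adjusted p = 0.0546). Without siControl replicate 1 it was 0.16, and without siControl replicate 2 it was 0.38. In siH1f0 against siJunb it was -0.16 (SE 0.07, adjusted p = 0.116). With only the 4 siH1f0 and siJunb libraries it stayed at -0.16 and passed (adjusted p = 7.59e-06), in a fit that takes the spread without the siControl libraries.

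Tgfbr1 (chromosome 4, 47353222 to 47414926) encodes the type I kinase that phosphorylates Smad2 and Smad3. It had 121 and 115 CPM in the siH1f0 libraries, 110.3 and 112 CPM in the siJunb libraries and 107 and 123 CPM in the siControl libraries. The siControl libraries spanned the other 4. The log2 fold change was -0.05 (95% confidence interval -0.21 to 0.11) for siJunb against siControl, 0.04 (-0.12 to 0.20) for siH1f0 against siControl and 0.09 (-0.07 to 0.25) for siH1f0 against siJunb. Its direction against siControl turned on the siControl library kept. For siJunb the log2 fold change was -0.15 without siControl replicate 1 and 0.05 without replicate 2. For siH1f0 it was -0.06 without replicate 1 and 0.14 without replicate 2. Between the knockdowns the log2 fold change stayed at 0.09 with only the 4 siH1f0 and siJunb libraries. It passed there (adjusted p = 0.0249), in a fit that takes the spread without the siControl libraries.

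Of the summed receptor RPKM, Tgfbr2 made up 21.2% and 21.7% in siH1f0, 27.0% and 26.9% in siJunb and 30.1% and 28.4% in siControl. Tgfbr3 made up 47.1% and 47.7% in siH1f0, 47.2% and 47.0% in siJunb and 39.4% and 40.5% in siControl. In each library Tgfbr3 was thus the most abundant receptor transcript per length, and its share was higher in all 4 knockdown libraries than in both siControl libraries. The receptor sum was 63.6 and 62.4 RPKM in siH1f0, 71.0 and 71.1 RPKM in siJunb and 58.1 and 65.9 RPKM in siControl.

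Levels of other cell types' markers moved between the groups as well. The counts of called markers stand against the shares of all tested genes called. For siJunb against siControl 8.63% rose and 7.82% fell, and for siH1f0 against siControl 2.27% rose and 4.27% fell. In siH1f0 against siJunb 12.2% were higher and 13.8% lower. Summed cardiomyocyte markers were at 173 and 181 CPM in the siH1f0 libraries, 128 and 129 CPM in the siJunb libraries and 170 and 155 CPM in the siControl libraries. Tnnt2 alone had 94.2 to 108 CPM, while Nkx2-5 was at 0 and Actn2, Ryr2 and Pln stayed at or under 0.184 CPM. Smooth muscle markers summed to 189 and 191 CPM in the siH1f0 libraries, 157 and 153 CPM in the siJunb libraries and 136 and 130.2 CPM in the siControl libraries, so both knockdowns were above siControl. Acta2 alone had 58.1 to 112 CPM, while Myh11, Cnn1, Lmod1, Synpo2 and Myocd stayed at or under 0.501 CPM. Both sums thus rest on few genes. Of the 8 cardiomyocyte markers tested, 3 fell in siJunb against siControl, among them Actc1, the cardiac alpha-actin, with a log2 fold change of -2.43 (adjusted p = 7.86e-06). In siH1f0 against siJunb, 6 of these 8 were higher. Of 7 smooth muscle markers, Acta2 and Mcam rose with each knockdown, and Mcam did not pass without siH1f0 replicate 1 or 2 for siH1f0 (adjusted p up to 0.156) or without siJunb replicate 1 for siJunb (0.114).

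The fibroblast marker sum was 4733 and 4652 CPM in the siH1f0 libraries, 4920 and 4933 CPM in the siJunb libraries and 4980 and 4783 CPM in the siControl libraries, lowest in both siH1f0 libraries. This sum too rests on few genes, mostly Vim (2541 to 2896 CPM), Col1a1 (1234 to 1406 CPM) and Col1a2 (524 to 708 CPM). Of the 9 fibroblast markers tested, Dcn and Col1a2 rose in siH1f0 against siControl and Dcn and Pdgfra in siJunb against siControl, while in siH1f0 against siJunb 4 were lower and 1 was higher. The rise of Pdgfra in siJunb did not pass under 8 of the 14 alternatives (adjusted p up to 0.235 with 1 library left out), and those of Dcn and Col1a2 in siH1f0 did not pass when either siH1f0 library was left out. Macrophage and leukocyte markers summed to 11.7 and 13.5 CPM in the siH1f0 libraries, 15.7 and 15.8 CPM in the siJunb libraries and 15.6 and 11.7 CPM in the siControl libraries. Of the 4 tested, Csf1r rose in siJunb against siControl (log2 fold change 1.39, adjusted p = 0.0276), and in siH1f0 against siJunb Csf1r (-1.47, adjusted p = 0.0176) and Cd14 (-0.49, adjusted p = 0.0274) were lower and Lyz2 was higher (0.78, adjusted p = 0.0382). Both Csf1r calls and that of Cd14 were lost when any 1 siJunb or siH1f0 library was left out (adjusted p up to 0.194), and that of Lyz2 without either siJunb library or siH1f0 replicate 2 (up to 0.275). Endothelial markers summed to 5.86 and 6.12 CPM in the siH1f0 libraries, 6.42 and 7.16 CPM in the siJunb libraries and 6.58 and 5.75 CPM in the siControl libraries, and these ranges overlapped between each knockdown and siControl. The part of these markers in the changes of the 10 genes was not tested.

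The rest of the pathway was read from lists of related genes, whose counts stand against 16.5% of all tested genes called for siJunb against siControl, 6.55% for siH1f0 against siControl and 25.9% for siH1f0 against siJunb. For the activators, the matrix scaffold and the SMADs with their regulators, the counts for siJunb against siControl were near that share. With Junb knocked down, 1 of the 9 tested activators of latent TGF-beta fell: Itgb5, an integrin subunit, had a log2 fold change of -0.22 (adjusted p = 0.0387). In the same comparison 2 of the 10 tested matrix scaffold genes fell, Mfap2 (-0.62, adjusted p = 0.0134) and Fbln1 (-0.72, adjusted p = 0.0243), which encode proteins of microfibrils and elastic fibres. Of 15 SMADs and SMAD regulators, Usp15, a deubiquitinase, rose (0.19, adjusted p = 0.0426) and Ski, a co-repressor, fell (-0.17, adjusted p = 0.0486). Smad2, Smad3, Smad4 and Smad7 did not pass in any of the 3 comparisons. Of these 5 called genes, Mfap2 and Fbln1 did not pass without siJunb replicate 1 or 2, and Itgb5, Usp15 and Ski did not pass when any 1 siJunb or siH1f0 library was left out (adjusted p up to 0.339).

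With H1f0 knocked down, Thbs1 fell as 1 of the 9 activators. It encodes thrombospondin-1, an activator of latent TGF-beta, and it averaged 128 ± 5.07 CPM in siH1f0 and 182 ± 20.4 CPM in siControl (SD, n = 2 each), a log2 fold change of -0.51 (adjusted p = 0.00576). Fbn1, the gene of fibrillin-1, rose as 1 of the 10 scaffold genes (0.40, adjusted p = 0.0434), and Tgif1, a co-repressor of SMADs, fell as 1 of the 15 SMADs and regulators (-0.30, adjusted p = 0.0208). Thbs1 did not pass without siH1f0 replicate 1 or 2 (adjusted p up to 0.094), and Fbn1 and Tgif1 did not pass when any 1 siJunb or siH1f0 library was left out (adjusted p up to 0.315 and 0.223).

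Between siH1f0 and siJunb, 2 activators were higher in siH1f0 and 2 lower, 2 scaffold genes were higher, and of the SMADs and regulators 1 was higher and 5 were lower. Thbs1 was lower in siH1f0 (-0.63, adjusted p = 0.000573), while Mmp2, a matrix protease, was higher (0.21, adjusted p = 0.0152) and so was Itgb5 (0.20, adjusted p = 0.0384). Fn1, the fibronectin gene, averaged 8347 ± 298 CPM in siH1f0 and 6399 ± 26.2 CPM in siJunb (SD, n = 2 each), with a log2 fold change of 0.38 (adjusted p = 0.0347), and Fbln1 was higher too (0.63, adjusted p = 0.0288). The co-repressors Tgif1 (-0.29, adjusted p = 0.00707) and Tgif2 (-0.63, adjusted p = 0.00767) were lower in siH1f0, and Ski was higher (0.22, adjusted p = 0.0128). Of these 8 genes, Thbs1 passed without each library in turn and the others did not: Mmp2, Itgb5, Fn1, Tgif1 and Ski lost the call when any 1 siJunb or siH1f0 library was left out, Fbln1 without either siJunb library or siH1f0 replicate 1, and Tgif2 without siJunb replicate 1 or siH1f0 replicate 2 (adjusted p up to 0.212). Fn1 also lost it in DESeq2 and Fbln1 in limma-voom.

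Among related receptors and ligands, several passed with Junb knocked down. Of 7 tested co-receptors and other receptors, 2 rose and 1 fell for siJunb against siControl. The activin receptor genes Acvr1b (0.36, adjusted p = 0.0111) and Acvr2a (0.35, adjusted p = 0.0131) rose, and Acvr2b fell (-0.56, adjusted p = 0.00502). Acvr1b and Acvr2a did not pass without siJunb replicate 1 or 2 (adjusted p up to 0.127), and Acvr2b did not pass without siJunb replicate 2 (0.0693). Of 8 tested superfamily ligands and ligand-processing genes, 2 rose and 3 fell. Gdf11, a relative of myostatin, averaged 40.0 ± 0.636 CPM in siJunb and 64.1 ± 0.523 CPM in siControl (SD, n = 2 each), a log2 fold change of -0.68 (adjusted p = 0.000164). Bmp4 was at 10.9 ± 0.131 CPM in siJunb and 6.68 ± 0.499 CPM in siControl (0.71, adjusted p = 0.00306), and Bmp1, a protease that also processes Ltbp1, fell (-0.24, adjusted p = 0.0105). Gdf11 and Bmp4 passed without each library in turn, and Bmp1 did not pass without siJunb replicate 1 or 2 (adjusted p up to 0.146). Between siH1f0 and siJunb, 2 of the 8 ligands were higher and 2 lower: Gdf11 was higher (0.73, adjusted p = 4.66e-05), and Bmp4 (-0.71, adjusted p = 0.00157) and Inhba, the activin A subunit gene (-0.54, adjusted p = 0.00177), were lower. Against siControl, 0 genes of both lists passed for siH1f0 in edgeR's test, with 2 of the 7 receptors and 2 of the 8 ligands at an unadjusted p under 0.05. DESeq2 called 1 of each list, and limma-voom called 0. Some values lay close together in the knockdowns: Inha, an inhibin subunit gene, had a log2 fold change of -0.59 for siH1f0 (adjusted p = 0.0576) and -0.56 for siJunb (adjusted p = 0.0412, up to 0.258 when any 1 siJunb or siH1f0 library was left out), and Acvr1b had 0.25 for siH1f0 (adjusted p = 0.0668).

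Antagonists and decoys of the superfamily changed in both knockdowns. For siJunb against siControl, 3 of the 10 tested rose and 1 fell. Dcn, the gene of decorin, a proteoglycan that binds TGF-beta, averaged 15.3 ± 0.306 CPM in siJunb and 4.74 ± 0.666 CPM in siControl (SD, n = 2 each), a log2 fold change of 1.68 (adjusted p = 9.28e-05). Bgn, the gene of the related biglycan, rose as well (0.37, adjusted p = 0.00186), and Chrd, the gene of the BMP antagonist chordin, fell (-0.69, adjusted p = 0.00484), though not without siJunb replicate 2 (0.0653). With H1f0 knocked down, 2 of the 10 rose and 2 fell. Dcn rose to 7.49 ± 0.0925 CPM in siH1f0 (0.65, adjusted p = 0.0114), and the BMP antagonist genes Nog (-1.25, adjusted p = 0.0272) and Grem1 (-0.50, adjusted p = 0.0301) fell. Dcn lost this call without siH1f0 replicate 1 or 2 (adjusted p up to 0.117), and Nog and Grem1 lost it when any 1 siJunb or siH1f0 library was left out (adjusted p up to 0.223). Between the knockdowns, 2 of the 10 were higher in siH1f0, Chrd (0.75, adjusted p = 0.00177) and Fstl1 (0.28, adjusted p = 0.00367), and 4 were lower, Dcn among them (-1.03, adjusted p = 0.000298). Fstl1 did not pass without siJunb replicate 1 or 2 (adjusted p up to 0.0574).

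Genes that TGF-beta is known to induce changed in both directions. Of 26 tested, with the members left out, 3 rose and 1 fell for siJunb against siControl, near the 16.5% called over all tested genes, with a median log2 fold change of 0.06. The 1 that fell was Junb itself, the siRNA target, whose call was set by the design. Acta2, the smooth muscle actin of myofibroblasts, rose (0.33, adjusted p = 0.00703) but did not pass without siJunb replicate 1 or 2 (adjusted p up to 0.0944). With H1f0 knocked down, 2 of the 26 rose and 4 fell, against 6.55% called over all tested genes, with a median of -0.05. At an unadjusted p under 0.05 there were 16 of the 26, against 22.8% of all tested genes. Acta2 averaged 111 ± 2.27 CPM in siH1f0 and 60.6 ± 3.57 CPM in siControl (0.87, adjusted p = 0.000107), and Col1a2, a collagen I chain gene, rose (0.34, adjusted p = 0.00292), though not without siH1f0 replicate 1 or 2 (adjusted p up to 0.0864). Cdkn1a, the cell cycle inhibitor p21, fell (-0.49, adjusted p = 0.000969). Between the knockdowns, 3 of the 26 were higher in siH1f0 and 7 lower, with a median of -0.10. Junb was among the higher (1.64, adjusted p = 1.47e-05), which the design also set, as it was the siRNA target in siJunb. Cdkn1a was at 224 ± 3.38 CPM in siH1f0 and 332 ± 5.62 CPM in siJunb (SD, n = 2 each), with a log2 fold change of -0.57 (adjusted p = 0.000135).

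**Figure D4:**
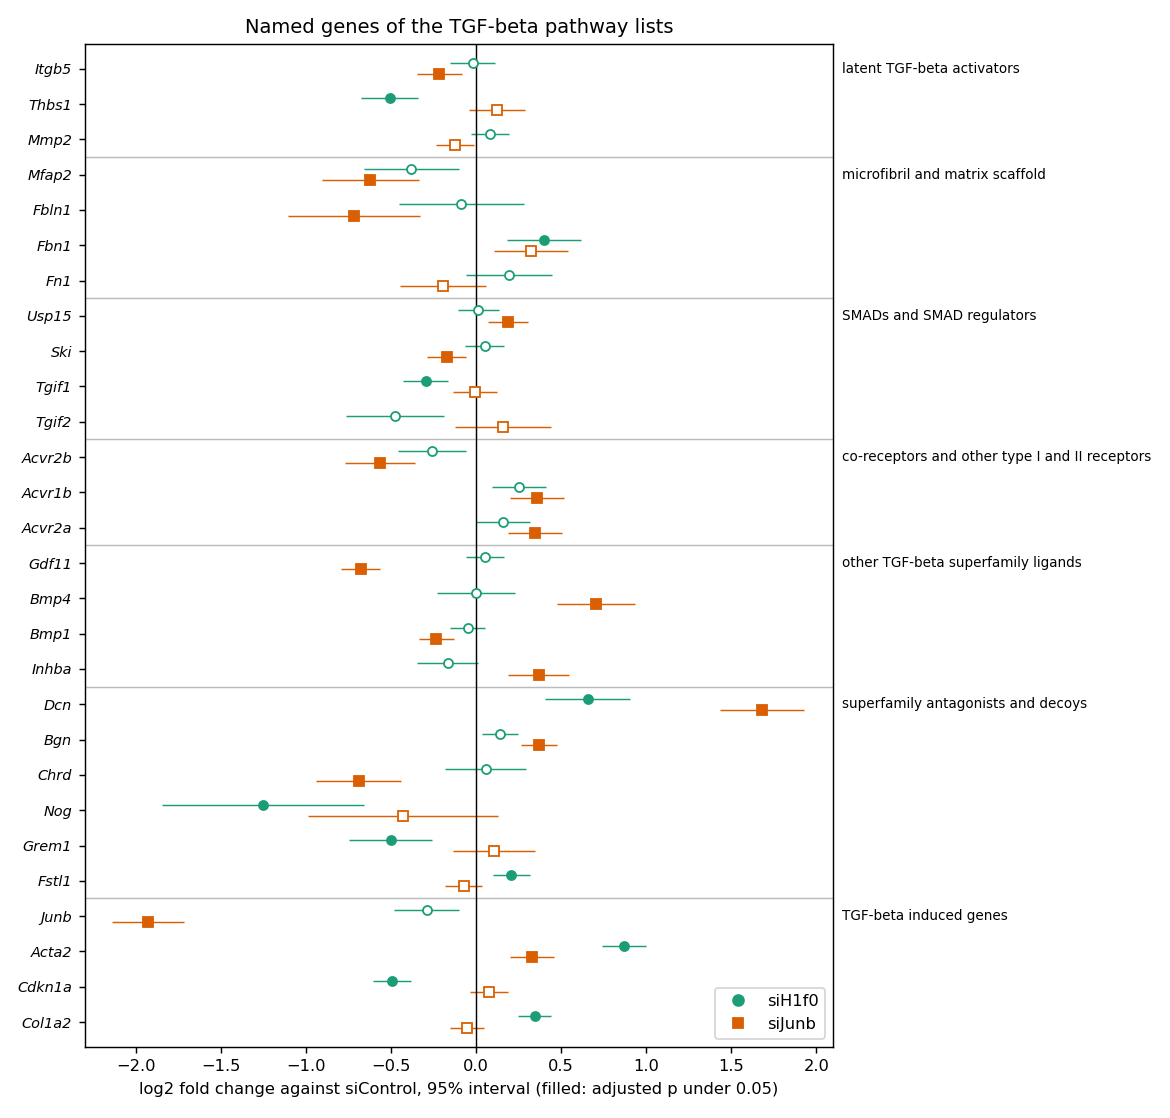
Log2 fold changes against siControl of the list genes named here, grouped by list, for siH1f0 and for siJunb. Dcn has the highest point, 1.68 for siJunb, and Acta2 lies at 0.87 for siH1f0 and 0.33 for siJunb.

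The genes whose profile over the 6 libraries was most like that of a member were sought for the 3 members with the widest range of group means, by the root mean square difference of centred log2(CPM + 0.5) values among 9910 genes. For Ltbp2 the closest were Chic1 (0.0395), Slit3 (0.0451) and Cgnl1 (0.0467), and 44 genes lay within 0.1. For Tgfbr2 they were Hk2 (0.0295), Iws1 (0.0301) and Cd44 (0.0313), with 237 genes within 0.1, and for Tgfb2 they were Nrp2 (0.0179), Fitm2 (0.0230) and Rufy2 (0.0241), with 393 genes within 0.1. The number within a fixed distance falls as a gene's own range grows, and the ranges of group means were 0.63 for Ltbp2, 0.50 for Tgfbr2 and 0.47 for Tgfb2 on the log2 scale.

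Promoter sequences are shown because one siRNA lowered the RNA of an AP-1 subunit. RefSeq windows of GRCm38.p6, from 250 bases before to 50 after a transcript start, were found for 8 of the 10 members in 12 windows, and Tgfb3 and Tgfbr3 were not matched. Both strands were searched for the AP-1 motif TGANTCA, held by 7.81% of all 32851 windows, for the cAMP response element TGACGTCA, held by 1.79%, and for the palindromic SMAD element GTCTAGAC, held by 0.213%. The motifs did not overlap one another in the members' windows. The AP-1 motif was matched once, in the Ltbp3 window, where TGAGTCA starts 6 bases before the transcript start and crosses it. The cAMP response element was matched once, 73 bases before the transcript start of an Ltbp1 window. Another Ltbp1 window held none of the 3 motifs. The windows of Ltbp2 and Tgfbr2, the members with the largest called change in siJunb and in siH1f0 against siControl, held none of the 3 motifs. The lines below give Ltbp3 (chr19:5740650-5740900, plus strand), Ltbp1 (chr17:75005279-75005479, plus strand), Ltbp2 (chr12:84876559-84876741, minus strand) and Tgfbr2 (chr9:116175364-116175613, minus strand), 5′ to 3′, with the matched motif in capitals. The Ltbp1 and Ltbp2 lines stop where the annotated gene begins, with 201 and 183 of the 250 bases before the transcript start. The bases from there to that start were searched but are not shown.
Ltbp3: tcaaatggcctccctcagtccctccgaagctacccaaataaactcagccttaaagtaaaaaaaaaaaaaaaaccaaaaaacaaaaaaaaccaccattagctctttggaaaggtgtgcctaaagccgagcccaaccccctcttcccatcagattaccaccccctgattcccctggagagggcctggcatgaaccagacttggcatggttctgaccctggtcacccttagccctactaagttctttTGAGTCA
Ltbp1: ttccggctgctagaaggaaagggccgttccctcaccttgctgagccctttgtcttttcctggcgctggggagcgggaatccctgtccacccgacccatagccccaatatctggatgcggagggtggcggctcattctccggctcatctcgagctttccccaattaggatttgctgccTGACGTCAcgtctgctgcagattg
Ltbp2: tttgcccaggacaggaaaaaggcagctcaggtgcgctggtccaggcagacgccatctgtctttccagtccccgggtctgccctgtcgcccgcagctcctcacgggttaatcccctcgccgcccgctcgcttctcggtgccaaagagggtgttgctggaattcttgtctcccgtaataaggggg
Tgfbr2: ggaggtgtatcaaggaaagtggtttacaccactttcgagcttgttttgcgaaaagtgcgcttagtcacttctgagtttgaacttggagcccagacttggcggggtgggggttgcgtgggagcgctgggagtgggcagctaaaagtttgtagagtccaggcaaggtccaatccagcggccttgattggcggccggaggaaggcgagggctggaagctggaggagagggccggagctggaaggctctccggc
A match in these letters is a description and shows no binding. Ltbp3, with the AP-1 match, had a log2 fold change of -0.18 for siJunb against siControl, and Tgfb1, Ltbp4, Ltbp2 and Tgfb2, which also passed in siJunb, had no AP-1 match in the windows searched. The windows of Tgfb2 and Ltbp4 lay wholly inside the annotated genes, so the outermost starts of these genes were not searched.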

How the data were processed

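Poly(A) RNA was sequenced from 6 libraries, 2 each for siH1f0, siJunb and siControl, grouped and numbered from the sample labels. The authors deposited unnormalised read counts for each gene symbol, made with HISAT2, Subread and featureCounts on mm10, per the submitters' processing notes. Not given in the sources used here: tool versions, annotation release, strand setting and how multi-mapping reads were handled. The table's gene length column gave RPKM.

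Counts were tested in R 4.3.3 with edgeR 4.0.16 (TMM, filterByExpr, quasi-likelihood F test, all 6 libraries, group as the only term, 3 residual degrees of freedom) over 13427 genes with Benjamini-Hochberg adjustment and a threshold of 0.05. TMM factors ran from 0.979 to 1.02, and the median count per tested gene from 1484 to 2682. Each ± is an SD between 2 libraries, and the SE of a log2 fold change was obtained as the change divided by the square root of F. An exact two-sided permutation test of 2 libraries against 2 cannot go below p = 0.333, so calls rest on the spread shared across genes. At an unadjusted p under 0.05, 31.7% of tested genes passed for siJunb, 22.8% for siH1f0 and 38.5% for siH1f0 against siJunb. Nothing in the labels beyond the word biological replicate says that libraries came from separate cultures, so p-values measure the spread between these libraries.

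The members and lists were chosen with earlier results of these data known. All members are named, with Junb, H1f0 and, per list and comparison, up to 3 called genes with the smallest p; for the 3 members of widest range the 3 genes most like them with a mean of at least 5 CPM are named. A few named results are left out here. Marker lists of 6 cell types are given as summed CPM. The 14 alternatives in common were DESeq2 1.42.0, limma-voom (limma 3.58.1), RLE size factors, scaling by total counts alone, no low-count filter, a stricter filter (mean CPM of 5 or more), a fit to just the 4 libraries compared, a replicate block, and each of the 6 libraries left out in turn, which assumes that a lone library varies as much as those of the other groups. The siControl libraries differed from each other the most, so this may understate the spread where either of them is left out. Crossed replicate numbers for siH1f0 against siControl were added after seeing the data.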

Additional observations from a re-analysis of the deposited data

How the results depend on the processing

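Across 430 values of single genes under the alternatives, 364 kept their direction and their side of the threshold, 32 lost the call, 29 gained it, 5 uncalled values changed sign, and no called value changed sign. For siJunb against siControl, 3 of the 10 genes passed with only the 4 libraries compared, against 6 with all 6 libraries. For siH1f0 against siControl, where 1 passed, 2 passed with total counts only, with DESeq2 and with crossed replicate numbers, and 3 with no count filter. Leaving out 1 library at a time gave 1 to 8 of the 10 for siJunb against siControl, 0 to 5 for siH1f0 against siControl and 4 to 9 for siH1f0 against siJunb. The 0 came from edgeR without either siH1f0 library, where 3 and 2 of the 10 had an unadjusted p under 0.05; DESeq2 was not run without a library. For siH1f0 against siControl the added gene was Tgfbr3 (adjusted p = 0.0344 with total counts only, 0.0124 with DESeq2 and 0.0435 with crossed numbers), joined with no count filter by Tgfb2 (0.0125). Ltbp1 passed for siJunb with no count filter (0.037), and Tgfb1 for siH1f0 against siJunb with total counts only (0.0221) and with the stricter filter (0.0375). The cause of these moves was not tested.

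Over all genes, siJunb against siControl had 2209 called genes, 1092 with only the 4 libraries compared and 352 to 5521 without 1 library. The siH1f0 comparison with siControl had 879, 1921 with no count filter, 325 with only the 4 libraries and 116 to 4931 without 1 library. For siH1f0 against siJunb there were 3484, 6416 with only the 4 libraries and 1304 to 6435 without 1 library. With total counts only, 884 rose and 1369 fell for siJunb against siControl, where TMM gave 1159 and 1050, and 2222 rose and 1340 fell for siH1f0 against siJunb, where TMM gave 1637 and 1847.

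Little shared effect of the replicate number was seen: same-numbered deviations correlated at -0.118 between siH1f0 and siControl, 0.0207 between siJunb and siControl and 0.0408 between siH1f0 and siJunb. Whether same-numbered libraries were made together is not given in the labels. With the replicate number as a block, 4 of the 10 genes passed for siJunb against siControl, 1 for siH1f0 against siControl and 5 for siH1f0 against siJunb (Tgfb1 and Ltbp3 lost the call for siJunb, adjusted p = 0.0618 and 0.068, and Ltbp3 for siH1f0 against siJunb, 0.076), and the counts over all genes were 1684, 550 and 2919. With crossed numbers siH1f0 against siControl had 939 called genes. The members had at least 1959 counts per library, so the spread between 2 libraries, more than counting error, limits what can be told apart.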
